A study of Mus musculus with 10 samples.

Results

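The gene Trp53, which encodes the transcription factor p53, was followed in the pituitary intermediate lobe (IL) together with 9 genes that p53 is known to activate directly, Mdm2, Mdm4, Ccng1, Zmat3, Phlda3, Sesn1, Sesn2, Tnfrsf10b and Aen. These 10 genes were taken by name from the 29527 genes of the deposited table, and each had 1 row in it. The IL is a thin layer of the pituitary built mostly of melanotrophs, endocrine cells that make α-MSH from the precursor POMC, and mice without the cell cycle inhibitor P27 (gene Cdkn1b) develop tumors there. RNA was sequenced in bulk from the dissected IL of 10 male and female mice aged 2 to 3 months. Of these, 4 were wild type (WT), 3 carried no functional p27 allele (p27-/-), and 3 lacked p27 and also 1 of the copies of Sox2 (p27-/-;Sox2+/-), with 1 library per mouse. Both mutant groups therefore share the p27 deletion, and there was no group with the Sox2 deletion alone. Both alleles are constitutive rather than limited to a cell type, so that values from the IL cannot be assigned to melanotrophs or to the adjoining stem cells. In bulk tissue, fewer cells of a type and less RNA per cell cannot be told apart. The question asked here is whether the transcripts of p53 and of its targets differ between IL that will form tumors, IL in which 1 lost copy of Sox2 impairs tumor formation, and WT IL.

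p53 is held at a low level in unstressed cells by the ubiquitin ligase MDM2 and its partner MDM4, and is mainly controlled through the stability and the activity of the protein rather than through its mRNA. DNA damage, oncogene activation or ribosomal stress release it, and it then binds as a tetramer to DNA elements made of a pair of decamer half-sites and activates genes of cell cycle arrest, DNA repair, metabolism and apoptosis. Mdm2 is itself a target, which closes a negative feedback loop, and the mRNA levels of the targets are commonly read as a sign of p53 activity. In the pituitary, cell cycle inhibitors restrain endocrine cell division, and P27 acts beside the p53 target P21 in the same family of inhibitors.

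The region around the start site was read for the half-site in the RefSeq promoter windows of GRCm38.p6, which run from 250 bases before to 50 bases after each start site. Windows were found for 8 of the 10 genes. Zmat3 and Tnfrsf10b had no window and are named only. The letters of the half-site were the standard degenerate p53 decamer, which reads the same on both strands, and they are in capitals below with 10 bases on each side. The stretches are shown as matches to these letters near the start sites, and whether p53 acts through them was not tested. Sequence outside the windows was not searched.

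Trp53: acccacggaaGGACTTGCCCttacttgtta

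Mdm2: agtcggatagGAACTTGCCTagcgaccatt

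Ccng1: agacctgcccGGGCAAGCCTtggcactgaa

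Sesn1: cttggccttcAAGCTTGTTTttgctggcct

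Aen: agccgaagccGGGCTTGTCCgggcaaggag

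The Trp53 stretch lies at chr11:69580274-69580303 on the + strand, with the first base of the half-site at position -75 from the start site. In Mdm2 the stretch is at chr10:117710925-117710954 on the - strand (position -186), and in Ccng1 at chr11:40755452-40755481 on the - strand (position -185). The Sesn1 stretch is at chr10:41887256-41887285 on the + strand (position -173), before a start site inside the annotated gene (41810574 to 41908436). That of Aen is at chr7:78895927-78895956 on the + strand, upstream of 1 annotated start (position -121) and at position 11 after another. A half-site was present in the windows of 5 of the 8 genes (62.5%), against 2582 of 27025 genes with a window (9.55%). Mdm4, Phlda3 and Sesn2 held none of these letters in their windows. The full element, 2 half-sites with a spacer of at most 13 bases, was in no window of the 8 genes and in the windows of 20 genes of the genome (0.074%). Among the 20 genes was Cdkn1a, the gene of P21, at chr17:29090906-29090937 on the + strand (position -73). Its exact match has a spacer of 12 bases, in lower case.

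Cdkn1a: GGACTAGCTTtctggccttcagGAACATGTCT

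These matches describe the letters in the windows and are not measurements of binding. The second Cdkn1a half-site, GAACATGTCT, is followed directly by tgacatgttc, which differs from the half-site letters only at its first base. Only exact matches were searched for, so this adjacent pair is not the one printed, and such pairs are left out of the counts of full elements. Which of these stretches p53 binds was not tested.

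The deposited values are normalised read counts on a log2 scale, and all fold changes are differences of these values. The targeted genes were checked first. Cdkn1b had log2 values of 8.54, 8.85, 8.39 and 8.66 in WT, of 8.27, 8.04 and 8.22 in p27-/- and of 8.10, 7.73 and 7.83 in p27-/-;Sox2+/- samples. All mutant values lay below all WT values, but transcripts of the locus were still counted, and which part of the gene the reads covered is unknown from the table. Sox2 lay between 7.34 and 7.75 in WT, between 7.08 and 7.45 in p27-/- and between 6.88 and 7.07 in p27-/-;Sox2+/- samples. The melanotroph markers Pomc, with log2 values from 18.00 to 19.00, and Pax7, from 11.45 to 11.97, were present in every library. Markers of other tissue varied between samples of the same genotype, and some differed between genotypes. The centred mean of 5 posterior lobe markers ranged from -0.68 to 0.99 in WT, from -0.37 to -0.11 in p27-/- and from -0.78 to 0.79 in p27-/-;Sox2+/- samples, and that of 4 anterior lobe hormone genes from -0.17 to 1.94, from -1.06 to 0.70 and from -1.04 to 0.06. Endothelial markers (5 genes) ranged from -0.08 to 0.42, from -0.38 to -0.06 and from -0.28 to 0.16, fibroblast markers (5 genes) from -0.01 to 0.41, from -0.57 to 0.22 and from -0.49 to 0.23, and macrophage markers (5 genes) from -0.22 to 0.50, from -0.04 to 0.02 and from -0.33 to 0.05. In p27-/- against WT, 4.62% of all tested genes passed as lower and 3.16% as higher in limma. Lower were 1 of 5 endothelial markers (Kdr, adjusted p = 0.00966), 1 of 4 anterior lobe hormone genes (Fshb, 0.028) and 2 of 5 fibroblast markers (Lum and Pdgfra). All 5 endothelial, all 5 posterior lobe, all 5 macrophage and all 3 stem cell markers (Sox2, Sox9 and S100b) had negative fold changes. Of 4 melanotroph genes 1, Pcsk2, was higher (0.0352), and Pomc, Pax7 and Tbx19 did not pass. In p27-/-;Sox2+/- against WT, Kdr (0.0459) and Fshb (0.0294) were lower, 1 of 5 and 1 of 4 genes of their lists, beside 1.88% of all tested genes. No marker of these lists had a mean log2 value under 1, and the part of these tissues in the results below was not tested.

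None of the transcripts of p53 and its 9 targets passed the test for a difference between genotypes. In p27-/- against WT samples, 0 of the 10 genes passed an adjusted p of 0.05 in limma, where 7.78% of the 17268 tested genes did, and 0 had an unadjusted p under 0.05, against 24.1% of all tested genes. For p27-/-;Sox2+/- against WT samples 0 of 10 passed, beside 2.71% of all tested genes, and 1 of 10, Sesn1, had an unadjusted p under 0.05, beside 17.8%. Between the mutants 0 of 10 passed (0.145% of all tested genes) and 0 of 10 had an unadjusted p under 0.05 (6.65%). With 10 genes, background shares of this size amount to less than 1 gene called in each comparison, so that the count of 0 does not set these genes apart from the rest of the transcriptome.

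The 95% intervals give the range of changes compatible with the values of each gene, not the smallest change that the adjusted test could detect. They are per gene and not adjusted for the number of genes. Over the 10 genes they ran from -0.50 to 0.47 on the log2 scale in p27-/- against WT, from -0.40 to 0.56 in p27-/-;Sox2+/- against WT and from -0.42 to 0.61 between the mutants. The fitted log2 fold changes ranged from -0.16 to 0.15, from -0.09 to 0.28 and from -0.19 to 0.25. Their median was 0.08 in p27-/- against WT (0.01 over all tested genes), 0.10 in p27-/-;Sox2+/- against WT (0.01) and 0.04 between the mutants (0.00). In size, regardless of sign, the median was 0.13, 0.10 and 0.09, beside 0.14, 0.12 and 0.09 over all tested genes. The sizes were thus close to those of a typical gene of this table. In simulated data for p27-/- against WT with 200 of 17268 genes changed, the fit recovered 0.0% of genes changed by 0.25 on the log2 scale, 29.5% of those changed by 0.5 and 95.5% of those changed by 1. The real comparison called 7.78% of the tested genes, a larger share than was changed in the simulation. Genes with log2 fold changes of 0.36 (Ppm1d) and -0.30 (Hipk2) passed there. Others of equal or larger size did not, such as Bax (0.36), Plk2 (0.39), Cdkn1a (0.54) and Perp (-0.63). How far the simulated shares hold for the real data was not tested.

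**Figure D1:**
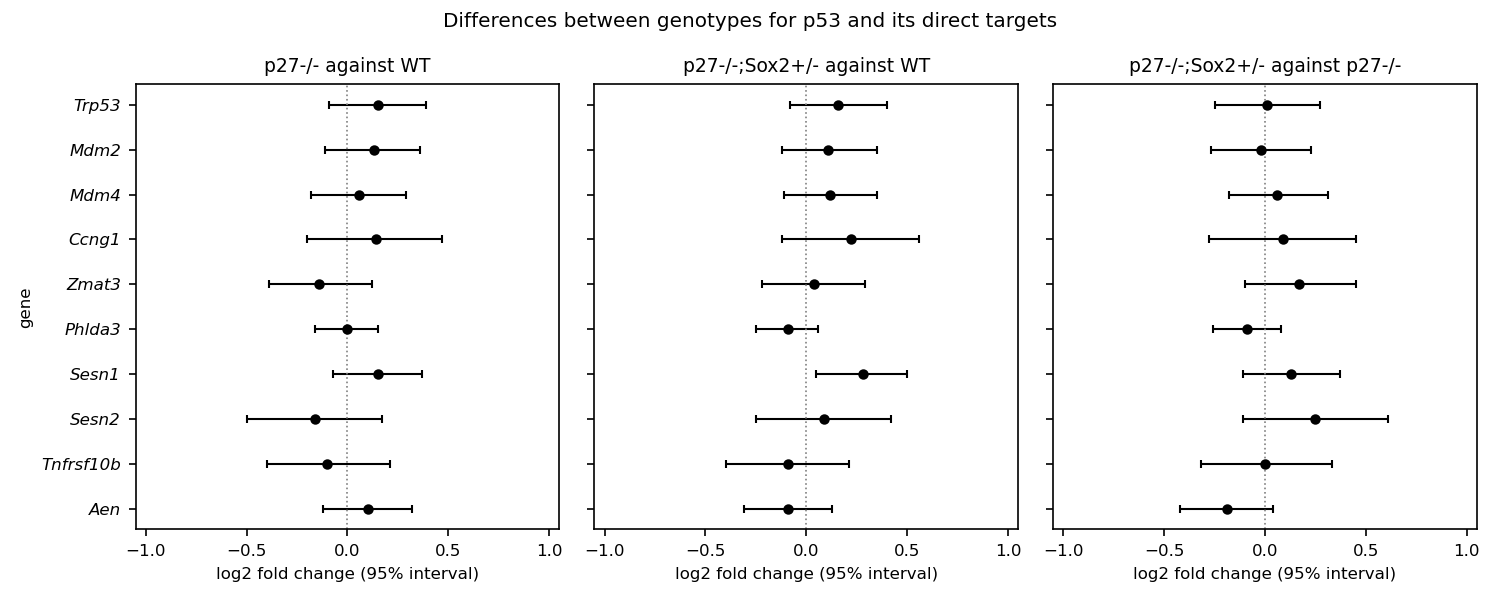
Log2 fold changes (x axis, points) with 95% intervals (bars) of Trp53 and 9 direct targets (y axis) in the 3 comparisons of genotypes, from limma. All intervals except that of Sesn1 in p27-/-;Sox2+/- against WT, 0.05 to 0.50, include 0.

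Trp53 (ENSMUSG00000059552) is a protein-coding gene on chromosome 11 of GRCm38.p6, from 69580348 to 69591873. Its log2 values were 8.62, 8.58, 8.40 and 8.85 in WT, 8.84, 8.84 and 8.62 in p27-/- and 8.88, 8.80 and 8.65 in p27-/-;Sox2+/- samples. WT replicate 4 was at the level of the highest mutant samples, and the other 3 WT samples were at or below the lowest mutant sample, so that the genotypes overlapped. WT samples averaged 8.61 ± 0.19 (SD, n = 4), p27-/- samples 8.77 ± 0.13 (SD, n = 3), and the compound mutants 8.78 ± 0.12 (SD, n = 3). Relative to WT, Trp53 differed by a log2 fold change of 0.15 in p27-/- (standard error 0.11, 95% interval -0.09 to 0.39, adjusted p = 0.44) and 0.16 in p27-/-;Sox2+/- (interval -0.08 to 0.40, adjusted p = 0.48). Both comparisons use the same 4 WT samples. Between the mutants it was 0.01, with an interval from -0.25 to 0.27. Wrap53, on the opposite strand and 97 bases away by the annotated gene bounds, had log2 fold changes of -0.03, 0.00 and 0.04 in the 3 comparisons. The counting did not use strand, so reads from transcripts that run past these bounds could not be told apart. The pseudogene Trp53-ps on chromosome 17 (54419597 to 54421236) has no row by that symbol, and how its reads were assigned is uncertain.

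Mdm2 and Mdm4 encode the inhibitors of p53. Mdm2 (ENSMUSG00000020184, chromosome 10, 117688875 to 117710758) had log2 values of 9.64, 10.05, 9.99 and 9.60 in WT, of 9.96, 9.89 and 9.99 in p27-/- and of 9.94, 9.91 and 9.94 in p27-/-;Sox2+/- samples. The WT samples fell into a lower and a higher pair, and the mutant samples lay between them or level with WT replicate 3, so the WT spread (SD 0.23) was wider than that of p27-/- (SD 0.05) and p27-/-;Sox2+/- samples (SD 0.02). Relative to WT, Mdm2 differed by 0.13 in p27-/- on the log2 scale (interval -0.11 to 0.36, adjusted p = 0.509) and 0.11 in p27-/-;Sox2+/- (interval -0.12 to 0.35, adjusted p = 0.637). Mdm4 (ENSMUSG00000054387, chromosome 1, 132986105 to 133030587) had log2 values of 11.65, 12.02, 11.95 and 12.16 in WT, of 11.97, 11.92 and 12.12 in p27-/- and of 12.10, 12.07 and 12.03 in p27-/-;Sox2+/- samples. WT samples held both the lowest and the highest Mdm4 value. Relative to WT, Mdm4 differed by 0.06 in p27-/- on the log2 scale (interval -0.18 to 0.29) and 0.12 in p27-/-;Sox2+/- (interval -0.11 to 0.35). Between the mutants the log2 fold changes were -0.02 for Mdm2 (interval -0.27 to 0.23) and 0.06 for Mdm4 (interval -0.18 to 0.31). The fitted differences of both inhibitors were smaller than the SD between WT mice, 0.23 for Mdm2 and 0.22 for Mdm4.

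Ccng1 encodes cyclin G1, a target that recruits a phosphatase to MDM2 and takes part in the feedback on p53. It lies on chromosome 11 from 40748552 to 40755309 (ENSMUSG00000020326). Its log2 values were 10.60, 10.69, 10.85 and 10.33 in WT, 11.04, 10.72 and 10.49 in p27-/- and 10.58, 10.76 and 11.17 in p27-/-;Sox2+/- samples. One sample of each mutant group stood above all WT samples and the others lay within the WT range. The log2 fold change was 0.14 in p27-/- against WT (standard error 0.16, interval -0.20 to 0.47, adjusted p = 0.64), 0.22 in p27-/-;Sox2+/- against WT (interval -0.12 to 0.56, adjusted p = 0.495) and 0.09 between the mutants (interval -0.28 to 0.45). The SD was 0.22 in WT, 0.28 in p27-/- and 0.30 in p27-/-;Sox2+/- samples, the widest of the 10 genes in each mutant group.

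Zmat3 encodes a zinc finger RNA-binding protein that acts on splicing and mRNA stability downstream of p53 (ENSMUSG00000027663, chromosome 3, 32334792 to 32365665). Its log2 values were 10.54, 10.25, 10.77 and 10.68 in WT, 10.23, 10.53 and 10.52 in p27-/- and 10.64, 10.64 and 10.52 in p27-/-;Sox2+/- samples. The lowest WT and the lowest p27-/- sample were nearly equal, and the p27-/-;Sox2+/- samples lay close together inside the WT range. The log2 fold change was -0.14 in p27-/- against WT (interval -0.39 to 0.12, adjusted p = 0.521), 0.04 in p27-/-;Sox2+/- against WT (interval -0.22 to 0.29) and 0.17 between the mutants (interval -0.10 to 0.45, adjusted p = 0.944).

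Phlda3 encodes a pleckstrin homology protein that competes with AKT for membrane lipids and so restrains AKT signalling (ENSMUSG00000041801, chromosome 1, 135766085 to 135769134). It lay just above the filter of 3.32 for testing, with log2 values of 3.62, 3.49, 3.48 and 3.50 in WT, of 3.53, 3.53 and 3.49 in p27-/- and of 3.45, 3.36 and 3.48 in p27-/-;Sox2+/- samples. The p27-/-;Sox2+/- samples were the lowest, separated from WT only beyond the second decimal. Of the 10 genes this 1 had groups that did not overlap in p27-/-;Sox2+/- against WT (15.0% of all tested genes), and it was 1 of 2 between the mutants (15.3%). Relative to WT its log2 fold change was 0.00 in p27-/- (interval -0.16 to 0.15) and -0.09 in p27-/-;Sox2+/- (interval -0.25 to 0.06, adjusted p = 0.543), and -0.09 between the mutants (interval -0.26 to 0.08). Without WT replicate 1, the highest sample, it was 0.03 and -0.06 against WT. Low genes varied little on this scale. The median SD between WT samples was 0.01 for the 5401 genes with a mean log2 value from -2 to 0, 0.11 for the 4048 genes from 2 to 4 and 0.19 for the 5316 genes from 6 to 8, so that the narrow interval of Phlda3 holds for the deposited scale and may understate a change in counts.

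Sesn1 and Sesn2 encode sestrins, stress proteins that inhibit mTORC1 and limit oxidative damage. Sesn1 (ENSMUSG00000038332, chromosome 10, 41810574 to 41908436) had log2 values of 9.20, 9.51, 9.28 and 9.37 in WT, of 9.62, 9.48 and 9.37 in p27-/- and of 9.45, 9.63 and 9.77 in p27-/-;Sox2+/- samples. Of the p27-/-;Sox2+/- samples 2 of 3 were above all WT samples and the third was below WT replicate 2. Sesn1 in p27-/-;Sox2+/- against WT differed by 0.28 on the log2 scale (standard error 0.10), a 1.21-fold difference with a 95% interval from 1.04 to 1.41, and had the smallest unadjusted p of the 10 genes, 0.0186. It did not pass after adjustment over all tested genes (adjusted p = 0.173), nor with any sample left out (0.0986 to 0.443) or under any other setting tried (0.113 to 0.284). Its log2 fold change was 0.15 in p27-/- against WT (interval -0.07 to 0.37, adjusted p = 0.408) and 0.13 between the mutants (interval -0.11 to 0.37). Sesn2 (ENSMUSG00000028893, chromosome 4, 132492804 to 132510456) had log2 values of 6.57, 5.85, 6.08 and 5.96 in WT, of 5.86, 6.06 and 5.93 in p27-/- and of 6.11, 6.33 and 6.17 in p27-/-;Sox2+/- samples. WT replicate 1 had the highest value of all, and every p27-/-;Sox2+/- sample lay above every p27-/- sample. Between the mutants Sesn2 differed by 0.25 on the log2 scale (standard error 0.17, interval -0.11 to 0.61, adjusted p = 0.927). Against WT it was -0.16 in p27-/- (interval -0.50 to 0.17) and 0.09 in p27-/-;Sox2+/- (interval -0.25 to 0.42).

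Tnfrsf10b encodes the death receptor for the ligand TRAIL (ENSMUSG00000022074, chromosome 14, 69767472 to 69784411), and Aen an exonuclease that degrades DNA during apoptosis (ENSMUSG00000030609, chromosome 7, 78895927 to 78911209). For Tnfrsf10b the log2 values were 5.50, 5.43, 5.85 and 5.56 in WT, 5.58, 5.44 and 5.44 in p27-/- and 5.80, 5.31 and 5.36 in p27-/-;Sox2+/- samples. In p27-/-;Sox2+/- samples 2 of 3 values were the lowest of all and the other was above all but 1 WT sample, so that the genotypes overlapped, with log2 fold changes of -0.10 in p27-/- against WT (interval -0.40 to 0.21), -0.09 in p27-/-;Sox2+/- against WT (interval -0.40 to 0.21) and 0.00 between the mutants (interval -0.32 to 0.33). Aen had log2 values of 7.71, 7.56, 7.68 and 7.67 in WT, of 7.79, 7.75 and 7.72 in p27-/- and of 7.53, 7.42 and 7.74 in p27-/-;Sox2+/- samples. All p27-/- samples were above all WT samples, the only such separation among the 10 genes in that comparison, where 20.6% of all tested genes had groups that did not overlap. The difference was small, at 0.10 on the log2 scale (standard error 0.10, interval -0.12 to 0.32, adjusted p = 0.601). Aen in p27-/-;Sox2+/- samples was -0.09 from WT (interval -0.31 to 0.13) and -0.19 from p27-/- (interval -0.42 to 0.04, adjusted p = 0.862).

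**Figure D2:**
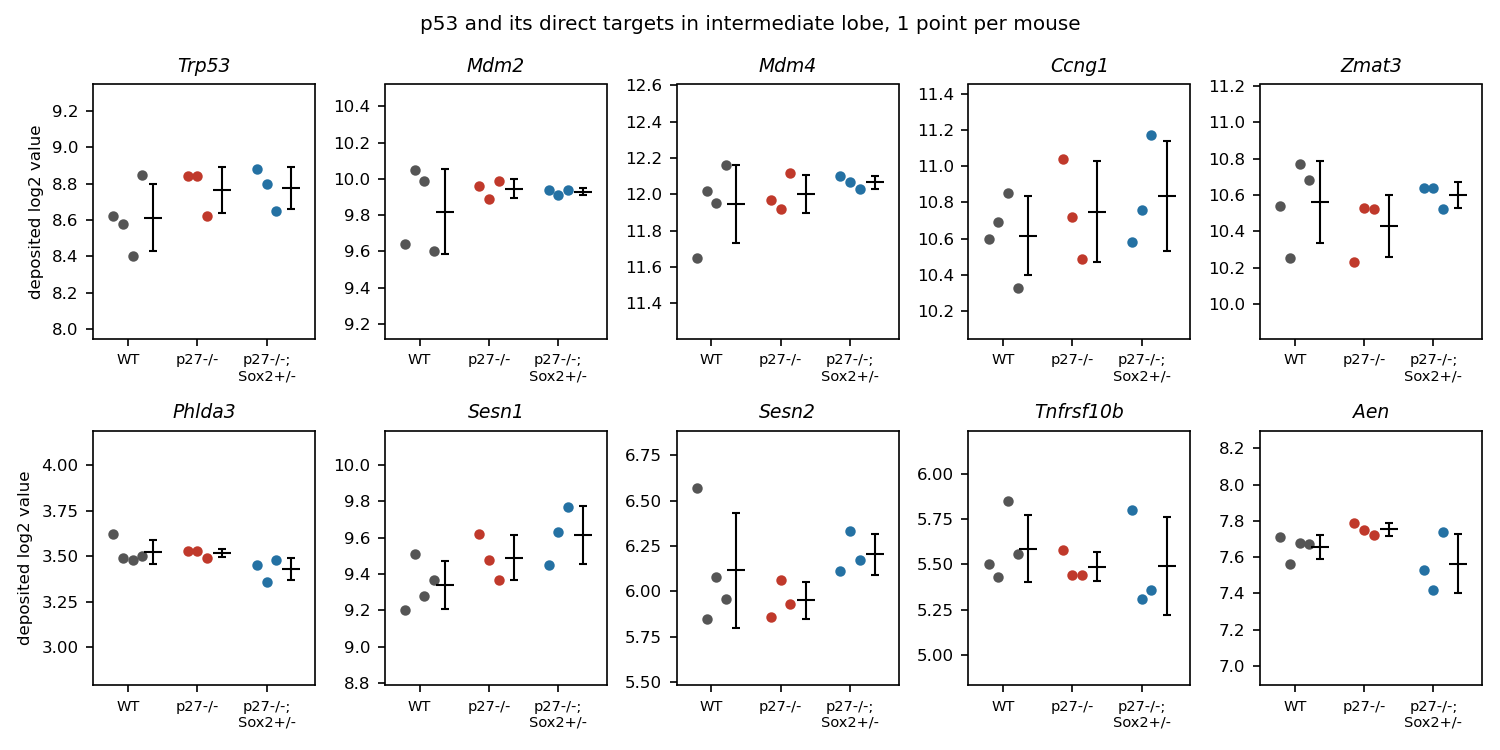
Deposited log2 values (y axis) of Trp53 and 9 direct targets in WT (n = 4), p27-/- (n = 3) and p27-/-;Sox2+/- (n = 3) IL. Points are mice in order of replicate number, the black dash is the mean and the bar its SD, and each panel has its own y axis. Trp53 has means of 8.61, 8.77 and 8.78, and the genotypes overlap in most panels.

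Across the 3 genotypes the order of the means differed from gene to gene. The p27-/-;Sox2+/- mean was the highest for 6 of the 10 genes, the p27-/- mean for 2 and the WT mean for 2. The WT mean was the lowest for 5 genes (Trp53, Mdm2, Mdm4, Ccng1 and Sesn1), the p27-/-;Sox2+/- mean for 2 (Phlda3 and Aen) and the p27-/- mean for 2 (Zmat3 and Sesn2). For Tnfrsf10b the mutant means were nearly tied, both at 5.49 after rounding and below WT. No neighbours in these orders differed past the threshold of the test. The distance from the lowest to the highest mean was between 0.09 and 0.28 on the log2 scale. It can be set beside the spread between mice of 1 genotype, which had a median SD over the 10 genes of 0.20 in WT (0.06 to 0.32), 0.10 in p27-/- (0.02 to 0.28) and 0.11 in p27-/-;Sox2+/- samples (0.02 to 0.30), against 0.16, 0.11 and 0.12 over all tested genes. Averaged over the 10 genes after centring, samples ranged from -0.07 to 0.02 in WT, from -0.04 to 0.03 in p27-/- and from 0.01 to 0.07 in p27-/-;Sox2+/-.

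The genes whose profile over the 10 samples was nearest to that of Trp53, by the root mean square difference of centred log2 values, were Rcc2 (0.054), Slamf1 (0.063) and Zfand1 (0.064). Trp53 itself varied by 0.149 about its mean on the same measure. For Sesn1, which varied by 0.163, they were Pgm2l1 (0.042), Ptpn4 (0.055) and Mrpl3 (0.056). None of the 10 genes was among the 3 nearest of either.

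Some genes of the wider p53 pathway passed the test. A list of 30 other p53 targets was examined, of which 25 were above the filter. This list and the lists below were chosen with earlier results of these data known. Their counts beside the shares of all tested genes are therefore not an independent comparison. In p27-/- IL 4 of the 25 were higher than in WT (3.16% of all tested genes were) and 0 were lower (4.62%). These were the apoptosis gene Pmaip1, the growth arrest and DNA repair gene Gadd45a, the antiproliferative gene Btg2 and the phosphatase gene Ppm1d. In compound mutants against WT 1 of 25, the kinase gene Plk2, was higher (0.828% of all tested genes) and 0 were lower (1.88%). Between the mutants 1 of 25, Pmaip1, was lower in p27-/-;Sox2+/- (0.0637%) and 0 were higher (0.0811%). The other 21, 24 and 24 did not pass, and 11, 7 and 1 of the 25 had an unadjusted p under 0.05, beside 24.1%, 17.8% and 6.65% of all tested genes. Genotypes did not overlap for 8, 5 and 4 of the 25, beside 20.6%, 15.0% and 15.3% of all tested genes. The median log2 fold change of the 25 was 0.14 in p27-/- against WT, 0.14 in p27-/-;Sox2+/- against WT and 0.00 between the mutants, beside 0.01, 0.01 and 0.00 over all tested genes. The endothelial, fibroblast and anterior lobe markers given above differed in the same comparison, and their part in these calls was not tested. Centred means over the 30 genes lay from -0.12 to -0.02 in WT, from 0.03 to 0.09 in p27-/- and from 0.02 to 0.05 in p27-/-;Sox2+/- samples. The count of 4 higher genes depended on the samples. It was 6 without WT replicate 1, 2 without WT replicate 2 or 3, 1 without WT replicate 4, 1 without p27-/- replicate 1 or 2, 2 without p27-/- replicate 3 and 2 without p27-/-;Sox2+/- replicate 2. The count of lower genes became 1 without WT replicate 1 or p27-/- replicate 1.

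Pmaip1, also called Noxa, encodes a BH3-only protein that promotes apoptosis by binding MCL1. Its log2 values were 4.18, 4.37, 4.72 and 4.16 in WT, 5.30, 5.59 and 5.20 in p27-/- and 4.39, 4.53 and 4.54 in p27-/-;Sox2+/- samples. All p27-/- samples stood above all others, and the p27-/-;Sox2+/- samples lay inside the WT range. Pmaip1 rose 2.00-fold in p27-/- against WT (95% interval 1.62 to 2.47, log2 fold change 1.00, standard error 0.14, adjusted p = 0.00149) and was past the threshold with any sample left out (0.000608 to 0.00944) and in each other setting that tested it (0.000431 to 0.00878), the filter of 50 leaving it out. Between the mutants it was lower in p27-/-;Sox2+/- by a log2 fold change of -0.87 (interval -1.19 to -0.55, standard error 0.15, adjusted p = 0.0435). Against WT it was 0.13 (interval -0.17 to 0.44). The call between the mutants was lost when any 1 of 8 samples was left out. The adjusted p was then 0.0521 without WT replicate 2, 0.0595 without WT replicate 4, 0.115, 0.169 and 0.156 without p27-/- replicates 1, 2 and 3, and 0.207, 0.169 and 0.157 without p27-/-;Sox2+/- replicates 1, 2 and 3.

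Gadd45a had log2 values of 7.05, 6.94, 6.68 and 6.56 in WT, of 7.38, 7.49 and 7.39 in p27-/- and of 7.18, 6.92 and 7.37 in p27-/-;Sox2+/- samples. The p27-/- samples were above all others. Gadd45a rose 1.53-fold in p27-/- against WT (log2 fold change 0.61, standard error 0.14, adjusted p = 0.0211), with an adjusted p of 0.058 without WT replicate 4 and of 0.0593, 0.082 and 0.0757 without p27-/- replicates 1, 2 and 3. In p27-/-;Sox2+/- against WT its log2 fold change was 0.35 (interval 0.04 to 0.65, adjusted p = 0.21). Btg2 was at 9.54, 9.37, 9.38 and 9.03 in WT, at 9.79, 9.69 and 9.76 in p27-/- and at 9.72, 9.51 and 9.33 in p27-/-;Sox2+/- samples. All p27-/- samples were above all WT samples, and p27-/-;Sox2+/- replicate 1 lay among them. Its log2 fold change in p27-/- against WT was 0.42 (standard error 0.12, adjusted p = 0.0474), and the adjusted p was 0.0564, 0.0764 and 0.11 without WT replicates 2, 3 and 4, 0.148, 0.105 and 0.147 without p27-/- replicates 1, 2 and 3 and 0.0706 without p27-/-;Sox2+/- replicate 2. In p27-/-;Sox2+/- against WT it was 0.19 (interval -0.07 to 0.44).

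Ppm1d encodes WIP1, a phosphatase that switches off p53 and the damage kinases. It was at 8.08, 7.93, 8.03 and 7.96 in WT, at 8.46, 8.44 and 8.19 in p27-/- and at 8.33, 8.34 and 8.30 in p27-/-;Sox2+/- samples. All mutant samples lay above all WT samples. The log2 fold change was 0.36 in p27-/- against WT (standard error 0.10, adjusted p = 0.0352), and that in p27-/-;Sox2+/- against WT, 0.32, did not pass (interval 0.12 to 0.53, adjusted p = 0.0917). Between the mutants it was -0.04 (interval -0.26 to 0.18). The call in p27-/- was lost without WT replicates 2, 3 or 4 (0.0574, 0.0525 and 0.08), without p27-/- replicates 1 or 2 (0.139 and 0.133) and without p27-/-;Sox2+/- replicate 2 (0.0563). Plk2, a kinase of the polo family with roles in the centrosome cycle and the stress response, was at 8.38, 8.22, 7.77 and 7.98 in WT, at 8.39, 8.50 and 8.54 in p27-/- and at 8.80, 8.76 and 8.55 in p27-/-;Sox2+/- samples. Its values did not overlap between any pair of genotypes (20.6%, 15.0% and 15.3% of all tested genes in the 3 comparisons). It rose 1.53-fold in p27-/-;Sox2+/- against WT (log2 fold change 0.62, standard error 0.13, adjusted p = 0.0241), and the adjusted p was 0.0645 without WT replicate 4 and 0.096 and 0.123 without p27-/-;Sox2+/- replicates 1 and 2. For p27-/- against WT it was 0.39 (interval 0.11 to 0.67, adjusted p = 0.0843, and 0.023 without WT replicate 1) and between the mutants 0.23 (interval -0.07 to 0.53).

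Some of these calls also depended on other settings. Without a filter on low values the adjusted p was 0.0905 for Btg2, 0.0622 for Ppm1d and 0.086 for Pmaip1 between the mutants. With only the compared genotypes in the fit it was 0.0627 for Btg2, 0.0703 for Ppm1d and 0.0595 for Plk2, and without the trend 0.0633 for Btg2 and 0.069 for Pmaip1 between the mutants. After quantile normalization it was 0.0861 for Btg2 and 0.0509 for Pmaip1 between the mutants, and with Xist as a covariate 0.062 for Btg2.

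Other well-known targets did not pass. Cdkn1a, whose product P21 belongs to the same inhibitor family as P27, was at 6.52, 6.07, 5.58 and 5.93 in WT, at 6.88, 6.13 and 6.66 in p27-/- and at 6.51, 6.23 and 6.19 in p27-/-;Sox2+/- samples. Its genotypes overlapped, and WT replicate 1 was the highest WT sample. The log2 fold change in p27-/- against WT was 0.54 (standard error 0.21, interval 0.09 to 0.98, adjusted p = 0.134), and 0.70 without WT replicate 1, where it passed (adjusted p = 0.034). For p27-/-;Sox2+/- against WT it was 0.28 (interval -0.16 to 0.73). Bax, an effector of mitochondrial apoptosis, was higher in all p27-/- samples (7.29, 7.25 and 7.46) than in all WT samples (7.10, 6.90, 6.80 and 7.10), with a log2 fold change of 0.36 (interval 0.10 to 0.61) that did not pass (adjusted p = 0.0807). Bbc3, which encodes the BH3-only protein PUMA, had log2 fold changes of 0.01 (interval -0.20 to 0.22), 0.09 (interval -0.12 to 0.30) and 0.08 (interval -0.15 to 0.30) in the 3 comparisons. Perp, the gene of a desmosome protein with a part in apoptosis, pointed the other way. It was at 7.42, 7.75, 7.87 and 7.66 in WT, at 7.62, 6.89 and 6.64 in p27-/- and at 7.13, 7.15 and 7.47 in p27-/-;Sox2+/- samples. The genotypes overlapped, and the log2 fold change was -0.63 in p27-/- against WT (interval -1.04 to -0.21, adjusted p = 0.0644, and 0.00902 to 0.271 with a sample left out) and -0.43 in p27-/-;Sox2+/- against WT (interval -0.84 to -0.01, adjusted p = 0.266). Sfn (-0.26 and -0.29) and, in p27-/-, Zfp365 (-0.39) also had negative values with an unadjusted p under 0.05 against WT and did not pass. Gtse1, a regulator of p53 localisation in G2, was below the filter. Its log2 values were 2.96, 2.97, 2.87 and 2.86 in WT, 3.14, 3.13 and 3.25 in p27-/- and 3.11, 2.96 and 3.07 in p27-/-;Sox2+/- samples. An exact two-sided permutation test of the means gave p = 0.0571 for p27-/- against WT, the smallest value these groups allow, p = 0.171 for p27-/-;Sox2+/- against WT and p = 0.1 between the mutants, again the smallest possible. Fas, the gene of a death receptor, was also below the filter, and its values were lower in both mutants than in WT without overlap. They were 3.17, 3.10, 3.13 and 3.13 in WT, 3.05, 2.88 and 2.93 in p27-/- and 2.94, 2.86 and 2.85 in p27-/-;Sox2+/- samples, with differences of -0.18 and -0.25 from WT (exact permutation p = 0.0571 for each) and of -0.07 between the mutants (p = 0.3). For Rprm and Gdf15, below the filter as well, the exact permutation p for p27-/- against WT was 0.629 and 0.229. Fas, Rprm, Gdf15, Perp, Sfn and Zfp365 were named after their values were seen.

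**Figure D3:**
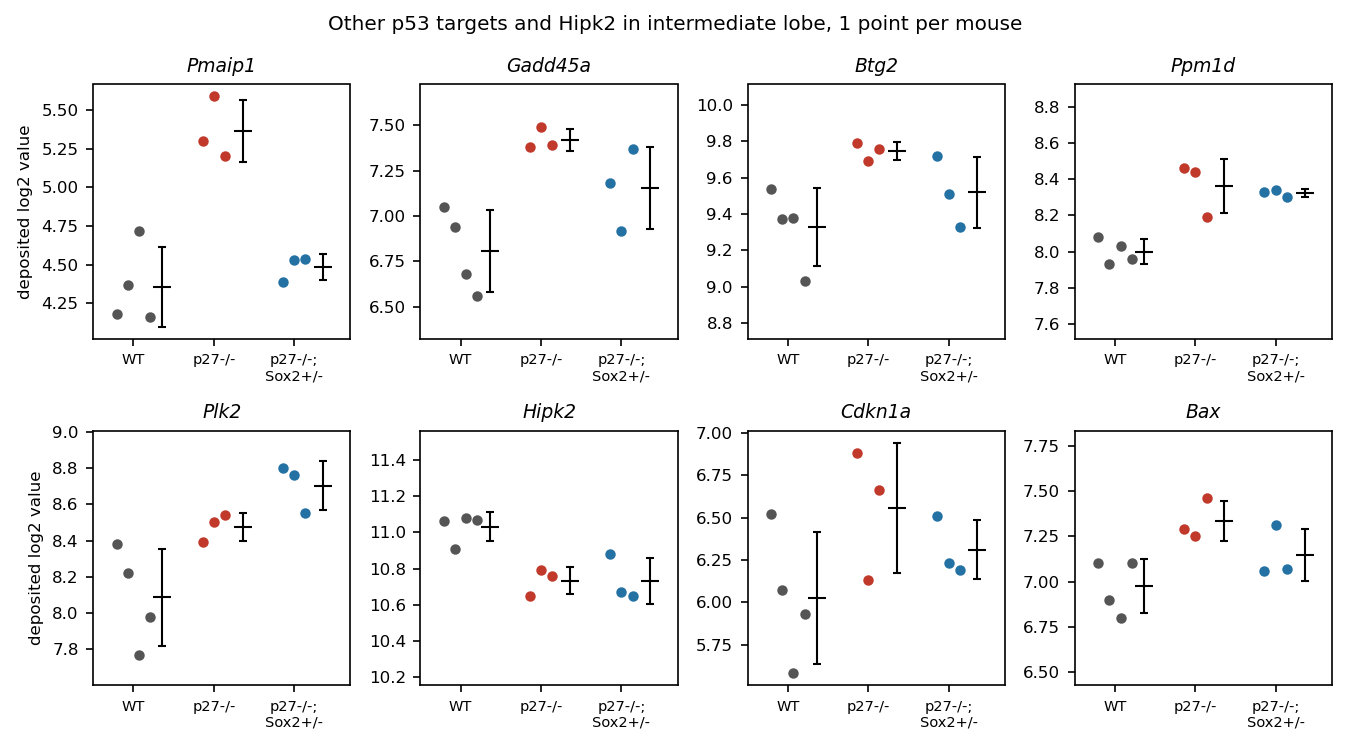
Deposited log2 values (y axis) of 7 other p53 targets and of the p53 kinase gene Hipk2 in WT (n = 4), p27-/- (n = 3) and p27-/-;Sox2+/- (n = 3) IL, with mice as points, the mean as a dash and its SD as a bar, each panel on its own y axis. Pmaip1 lies between 5.20 and 5.59 in p27-/- and between 4.16 and 4.72 in the other samples. The 7 targets shown all had positive log2 fold changes against WT. Bbc3 and targets with negative values in p27-/-, such as Perp, Sfn, Zfp365 and Fas, are not shown.

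Among 24 regulators of p53, which include damage kinases, ubiquitin ligases, acetyltransferases and binding partners, 23 were tested. Among these 1 was lower and 0 were higher in p27-/- against WT (4.62% and 3.16% of all tested genes), and in the other comparisons 0 passed in limma (2.71% and 0.145%). An unadjusted p under 0.05 was found for 4, 3 and 0 of the 23, beside 24.1%, 17.8% and 6.65% of all tested genes, so these counts were near or below the background. Genotypes did not overlap for 5, 4 and 2 of the 23, beside 20.6%, 15.0% and 15.3% of all tested genes. The median log2 fold change was 0.03, 0.00 and -0.04. The gene that passed was Hipk2, a kinase that phosphorylates p53 in the response to damage, with log2 values of 11.06, 10.91, 11.08 and 11.07 in WT, of 10.65, 10.79 and 10.76 in p27-/- and of 10.88, 10.67 and 10.65 in p27-/-;Sox2+/- samples. All mutant samples were below all WT samples, and the log2 fold change was -0.30 in both mutants, with an adjusted p of 0.0472 in p27-/- (standard error 0.09) and of 0.0806 in p27-/-;Sox2+/-. The call was lost without WT replicates 1, 3 or 4 (0.0568, 0.0932 and 0.105), without p27-/- replicates 1, 2 or 3 (0.17, 0.101 and 0.129) and without p27-/-;Sox2+/- replicates 2 or 3 (0.0709 and 0.0522). It was also lost without a filter on low values (0.0807), with only the compared genotypes in the fit (0.0663), without the trend (0.0731) and after median centring (0.0615). Cdkn2a, which encodes the MDM2 inhibitor ARF, lay between -1.89 and -1.88 in all samples, at the lowest value of the table, and was below the filter (exact permutation p = 0.114, 0.629 and 0.8 in the 3 comparisons). Of 7 paralogs of the genes under study 5 were tested and 0 passed in limma in any comparison (7.78%, 2.71% and 0.145% of all tested genes), with an unadjusted p under 0.05 for 2, 1 and 0 (24.1%, 17.8% and 6.65%). The smallest p was that of Ccng2, the cyclin G2 gene, with a log2 fold change of 0.36 in p27-/- (interval 0.13 to 0.58, adjusted p = 0.0514) and 0.35 in p27-/-;Sox2+/- against WT (interval 0.13 to 0.58, adjusted p = 0.0892). In p27-/- it passed without WT replicate 1 (0.0436) or WT replicate 2 (0.0359), with the filter of 50 (0.0476), with array weights (0.043) and after median centring (0.0439). Trp73 and Phlda2 were below the filter.

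Proliferation genes passed the test in the same samples. Of 6 such genes 5 (Mki67, Top2a, Ccna2, Ccnb1 and Cdk1) passed as higher in p27-/- against WT (3.16% of all tested genes) and 2 (Mki67 and Top2a) in p27-/-;Sox2+/- against WT (0.828%). The remaining gene, Pcna, had a log2 fold change of 0.44 in p27-/- against WT (interval 0.17 to 0.72). It just missed the threshold of 0.05 in limma, with an adjusted p from 0.032 to 0.196 with a sample left out. Between the mutants 0 passed in limma (0.145% of all tested genes), and 5 of 6 had an unadjusted p under 0.05 (6.65%). The median log2 fold change of the 6 was 0.91, 0.40 and -0.56. Their centred mean ranged from -0.70 to -0.22 in WT, from 0.44 to 0.94 in p27-/- and from -0.18 to 0.28 in p27-/-;Sox2+/- samples. Among the named p53 targets, Mdm2, Aen, Pmaip1, Gadd45a, Btg2, Ppm1d, Cdkn1a, Bax, Gtse1 and Rprm had their highest mean in p27-/- samples as this list did. For Mdm2 (9.95 against 9.93 in p27-/-;Sox2+/-) and Rprm (3.26 against 3.25) this was nearly a tie. Mdm4, Ccng1, Zmat3, Sesn1, Sesn2, Plk2, Bbc3 and Gdf15 had theirs in p27-/-;Sox2+/- samples, and Phlda3, Tnfrsf10b, Perp, Sfn, Zfp365 and Fas in WT. The part of proliferation in these values was not tested. Without p27-/- replicate 3 Ccna2 did not pass (adjusted p = 0.0669), and without p27-/-;Sox2+/- replicate 1 or 3 Top2a did not pass in p27-/-;Sox2+/- (0.0656 and 0.0635).

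**Figure D4:**
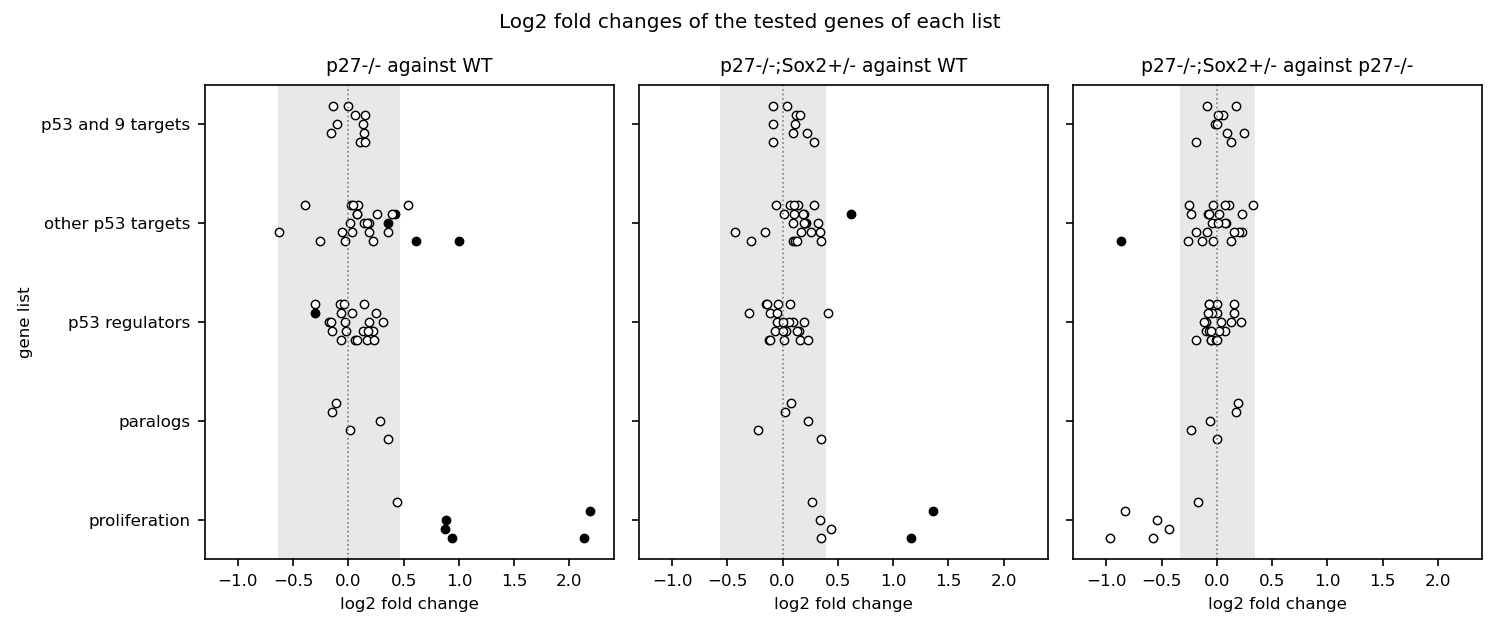
Log2 fold changes (x axis) of the tested genes of 5 lists (y axis) in the 3 comparisons. Each circle is a gene, filled where the adjusted p is under 0.05, vertical offsets within a list only separate the circles, and the grey band holds the central 95% of all tested genes, from -0.63 to 0.46, from -0.56 to 0.38 and from -0.32 to 0.34. No circle of p53 and its 9 targets is filled, and all lie inside the band.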

How the data were processed

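Total RNA of the dissected IL was amplified, made into cDNA libraries and sequenced. The authors aligned the reads with STAR 2.5.2a and counted them per gene with RSEM 1.3.30 on the Ensembl transcriptome of mouse GRCm38, without strand, and normalised the counts with DESeq2 1.18.1, per the study's methods and the submitters' processing notes. The authors deposited the result as log2 values of 29527 genes in 1 table. The transformation behind them is not given in the sources used here. The table holds no counts, so the depth of each library is unknown from it, intervals and floors based on counts are left out, and precision rests on the number of mice. Column means lie between 4.345 and 4.367.

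Samples were grouped by the labelled genotype. By the study's account both sexes were present in each group. Xist ranged from log2 9.22 to 14.82 in WT, from 8.78 to 15.01 in p27-/- and from 8.89 to 14.96 in p27-/-;Sox2+/- samples. Each library came from 1 mouse, so p-values measure the spread between these mice. The 17268 genes with a mean log2 value of at least 3.32, or 10 before the logarithm, entered 1 linear model of the 10 samples in limma 3.58.1 under R 4.3.3, with genotype contrasts and the trend option of eBayes, with Benjamini-Hochberg adjustment over all tested genes and a threshold of 0.05. The study used DESeq2 on counts, which log2 values do not allow. A gene below the filter was compared with an exact permutation test in scipy 1.17.1 (Python 3.11.15, numpy 2.4.6, pandas 2.3.3). Figures were drawn with matplotlib 3.10.9. The fit was tested on simulated data.

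The genes under study, the pathway lists and the tests were chosen with earlier results of these data known. Named in the text are the 10 genes, list genes that passed in any comparison or, in a list with none, the one with the smallest p, Cdkn1a, Pmaip1, Bax, Bbc3 and Gtse1 as well-known targets, Cdkn1b, Sox2 and Wrap53, and the 3 nearest profiles of Trp53 and Sesn1. Other genes are named as list members or markers, or as chosen after their values were seen. Gene positions and promoter windows are those of RefSeq on GRCm38.p6, matched by symbol. The genome of another build that was at hand was not used. As alternatives, the filter was dropped or raised to 50 before the logarithm, the fit was limited to the 2 genotypes compared, run with no trend or with array weights, the samples were centred on their medians or quantile normalised, replicate numbers were used as a block, Xist was added as a covariate for sex, and each sample was left out in turn. Other pseudocounts and count models do not apply to log2 values.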

Additional observations from a re-analysis of the deposited data

Results flagged for a closer look

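Among WT samples, 4 values of the 29 named genes stood apart from the other 3 WT samples by Dixon's ratio of the gap to the nearest sample over the whole range. Chance alone gives about 1.45 such values in 29 genes, or 1 in 20. Phlda3 was higher in WT replicate 1, at 3.62 against 3.48 to 3.50 in the others, with a ratio of 0.897. Hipk2 was lower in WT replicate 2, at 10.91 against 11.06 to 11.08, with a ratio of 0.921. Sox2 was higher in WT replicate 3, at 7.75 against 7.34 to 7.39 (0.885), and Top2a was higher in WT replicate 2, at 6.98 against 6.18 to 6.27 (0.885). Without these samples the log2 fold change in p27-/- against WT was 0.028 for Phlda3 (adjusted p = 0.846), -0.338 for Hipk2 (0.033), -0.072 for Sox2 (0.776) and 2.320 for Top2a (6.76e-05), and in p27-/-;Sox2+/- against WT it was -0.061 (0.7), -0.339 (0.0566), -0.361 (0.145) and 1.345 (0.00323).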

How the results depend on the processing

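Over all alternatives 0 of the 10 genes passed in any comparison. Their 564 values under the alternatives kept their side of the threshold (Phlda3 and Tnfrsf10b were below the filter of 50 and had no value there), 22 of them with a changed sign of a value that did not pass, and the lowest adjusted p was 0.0986 for Sesn1 in p27-/-;Sox2+/- against WT without WT replicate 2. Of 1011 values of the other named genes 921 kept their call, 75 lost it, 15 gained it and 0 reversed. Under median centring and quantile normalization the median log2 fold change of all tested genes was at most 0.026 in size. Some fold changes read here were smaller than that, such as 0.01 for Trp53 between the mutants. The depth behind the values is unknown, and the compressed scale of low genes limits Phlda3 most.

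The number of all tested genes called moved more. In p27-/- against WT it was 1343, with 831 without a filter on low values and 807 with only the 2 genotypes compared. In p27-/-;Sox2+/- against WT it was 468, with 260 in that fit and 1240 with array weights. Between the mutants it was 25, with 6 without a filter, 45 with only the 2 genotypes, 8 without the trend, 283 with array weights and 15 after quantile normalization. With 1 sample left out these counts ranged from 403 (without p27-/- replicate 3) to 1709 (without WT replicate 1), from 80 (without p27-/-;Sox2+/- replicate 2) to 658 (without WT replicate 1) and from 0 (without p27-/- replicate 2 or 3, or p27-/-;Sox2+/- replicate 1 or 2) to 41 (without WT replicate 1). In p27-/- against WT they were also 815 and 690 without WT replicates 3 and 4 and 609 and 572 without p27-/- replicates 1 and 2, in p27-/-;Sox2+/- against WT 219 without WT replicate 4 and 193 and 240 without p27-/-;Sox2+/- replicates 1 and 3, and between the mutants 10, 4 and 2 without WT replicate 4, p27-/- replicate 1 and p27-/-;Sox2+/- replicate 3. The cause was not tested.

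Replicate numbers are shared by the labels of the genotypes, but same-numbered samples did not deviate together, with correlations of their deviations from -0.238 to 0.182. With the replicate number as a block, in which WT replicate 4 has no partner, 595, 209 and 2 of all tested genes passed in the 3 comparisons, 0, 0 and 0 of the 10 genes, and 1, 0 and 0 of the other p53 targets, where the 1 was Pmaip1.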
